A study of Mus musculus with 12 samples.

Results

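The measurements described here are those of 4 genes by which regulatory T cells are recognised, Foxp3, Ikzf2, Gpr83 and Nrp1, on 12 arrays of sorted mouse spleen T cells. The genes were read from 6 named probe sets of the 45101 in the table: 1420765_A_AT for Foxp3, 1456956_AT for Ikzf2, 1423415_AT for Gpr83, and 1418084_AT, 1448943_AT and 1448944_AT for Nrp1. The members were listed by name and not by a cut on a measured value, though with earlier results of these data known. The pairing of probe set and gene was supplied with that list, since the table itself carries probe set identifiers alone.

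Treg cells are CD4+ T cells that restrain other immune cells. Foxp3 is the forkhead transcription factor that specifies the lineage, and mice without it develop fatal autoimmunity. Ikzf2 encodes Helios, a zinc finger factor of the Ikaros family, Gpr83 encodes a G protein-coupled receptor that is abundant in Treg cells, and Nrp1 encodes neuropilin-1, a surface co-receptor for semaphorins and VEGF that is used to tell thymus-derived Treg cells apart in mice. IL-2 acts on T cells through a receptor whose beta chain is needed to signal to STAT5, a factor that is known to act on Foxp3.

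Each of the 4 groups held 3 arrays, which the series calls distinct biological replicates. CD4+ CD25hi Treg cells were sorted fresh from spleen, after removal of CD8+ T cells and B cells and magnetic enrichment for CD25. Effector T cells were CD4+ CD25hi cells sorted after whole spleen had been cultured for 48 hours with anti-CD3, which cross-links the T cell receptor complex. Both populations came from normal C57BL/6 mice and from a line named C57BL/6-2Rbeta-WT/thymus transgenic, whose mice had been bred to deficiency in the IL-2 receptor beta chain and are described as having T cells defective in that receptor. The transgene's name refers to wild-type receptor beta and the thymus, and the promoter that drives it is not given in the sources used. C57BL/6 Treg arrays held pools of 8 to 15 mice aged 10 to 12 weeks, and transgenic Treg arrays held pools of 3 to 8 mice aged 7 to 33 weeks. Effector arrays held 1 mouse each, aged 10 to 14 weeks in C57BL/6 and 9 to 15 weeks in transgenic mice. Sorted cells were 99.0% to 99.9% CD4+ CD25+ on the 11 arrays with such a value, which the third C57BL/6 Treg array lacks. The probe set of the disrupted receptor gene, and probe sets for T cell, B cell, myeloid and other cell markers, were not analysed here.

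Values are deposited log2 GCRMA values, so 1 unit is a doubling. The lowest value on an array was 0.94 to 0.96 for Treg and 0.30 to 0.33 for effector cells, and array medians were 3.08 to 3.27, so levels set across the populations can carry a difference of scale. A log2 value of 5 is used below as the level under which a value is read as low, and probe sets that reached it on at least 3 arrays were tested (18271). All 6 members were tested. Of these, 3 (Ikzf2, Gpr83 and Nrp1 1448944_AT) reached that level on 3 arrays through the Treg arrays alone.

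RefSeq (GRCm38.p6) places Foxp3 at chrX:7579676-7595243, Ikzf2 at chr1:69531207-69687351, Gpr83 at chr9:14859880-14870789 and Nrp1 at chr8:128358591-128505476, all protein coding. The 250 bases before a transcript start were taken from RefSeq for the 3 genes with an entry (Foxp3, with 2 starts, Gpr83 and Nrp1). The window before the outer Foxp3 start is shown because Foxp3 is the member whose level parted from the others between the strains, and it lies on the plus strand at chrX:7579426-7579675, with capitals marking the letters TATAAA.

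Foxp3, outer start: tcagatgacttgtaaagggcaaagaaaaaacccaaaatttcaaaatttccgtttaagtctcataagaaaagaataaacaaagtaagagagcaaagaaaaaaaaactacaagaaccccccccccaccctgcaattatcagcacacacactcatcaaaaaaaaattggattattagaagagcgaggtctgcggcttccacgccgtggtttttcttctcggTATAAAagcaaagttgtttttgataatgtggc

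The windows were searched on both strands for TTCNNNGAA (the spaced palindrome that STAT factors bind), TGGGAA (a core of Ikaros family sites), TGTTTAC (a forkhead core) and TATAAA. No pair of these matches overlapped. Shown next are the other 2 matches, as short stretches on the plus strand with the match in capitals. The first lies at chrX:7580334-7580362 before the inner Foxp3 start, 139 to 131 bases upstream of it, and the second at chr9:14860080-14860105, upstream of the Gpr83 transcript start at 14860210. That start and the Nrp1 start used here, like the inner Foxp3 start, lie inside the gene spans given above, so these windows are upstream of 1 start and not of the whole gene.

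Foxp3, inner start, STAT letters: gagctctgttTTCCAAGAAcgggcattag
Gpr83, Ikaros letters: tgagctgcgcTGGGAActgcggtgct

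Among 32817 RefSeq windows of the same length, TTCNNNGAA was in 7.01%, TGGGAA in 21.6%, TGTTTAC in 3.16% and TATAAA in 12.4%. None of these letters was in the Nrp1 window. The outer Foxp3 window was 37.6% G or C, against 66.8% for Gpr83 and 64.4% for Nrp1 and a median of 52.4% over all windows. A match describes these letters only and is not evidence that a factor binds there.

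The first question was how the 4 genes stand in Treg cells of normal mice against activated effector cells of the same strain. All 4 were high in C57BL/6 Treg cells. Foxp3 read 11.51, 11.34 and 10.82 on the 3 C57BL/6 Treg arrays (log2) and 2.74, 2.77 and 2.99 on the 3 C57BL/6 effector arrays. Ikzf2 read 11.43, 12.02 and 12.39 on the Treg arrays, against 3.23, 3.40 and 3.30 on the effector arrays. Gpr83 read 11.37, 11.01 and 10.60 against 2.66, 2.52 and 2.50. For these 3 genes the Treg arrays lay above at least 95.2% of the probe sets of their array, whereas the effector arrays lay above 27.0% to 53.3%, within the bulk of low values.

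Nrp1 was also higher in Treg cells on each of its 3 probe sets, and 2 of these stayed above 5 on the effector arrays. Probe set 1448943_AT read 11.19, 11.44 and 11.41 on the C57BL/6 Treg arrays, against 8.21, 7.27 and 8.01 on the effector arrays. Probe set 1418084_AT read 10.78, 10.76 and 10.50 against 6.19, 5.77 and 6.20. Probe set 1448944_AT read 10.43, 10.65 and 10.42 against 4.97, 3.82 and 4.51, so that its effector values alone fell below 5. By 2 of its 3 probe sets, then, Nrp1 had a measurable level in activated effector cells, above 69.3% to 80.5% of the probe sets of the array.

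**Figure D1:**
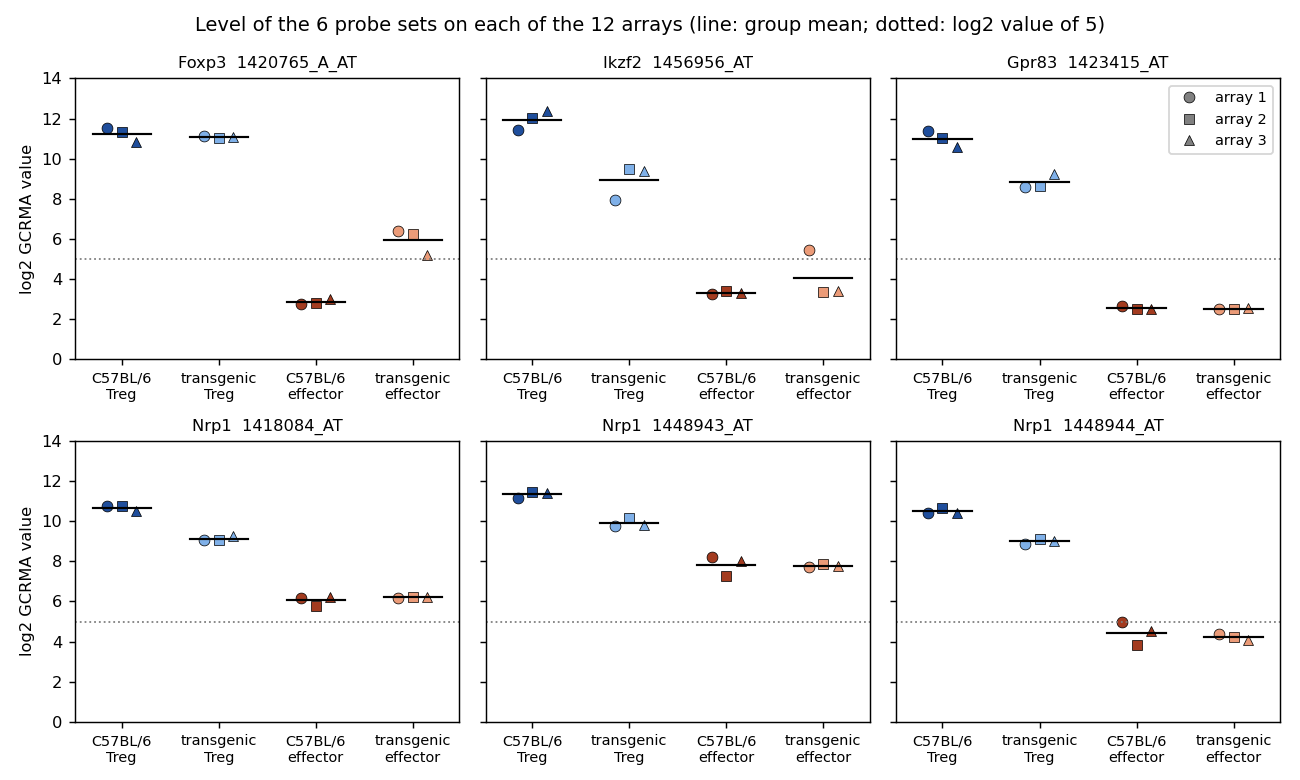
Log2 GCRMA value (vertical axis) of each of the 6 probe sets on the 12 arrays, by group; each marker is 1 array, the line is the mean of 3 arrays and the dotted line is a log2 value of 5. Foxp3 stayed between 10.82 and 11.51 in both Treg groups while Ikzf2, Gpr83 and Nrp1 lay lower in transgenic Treg cells, and Foxp3 alone was higher on all 3 transgenic effector arrays.

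In the fit over all probe sets, 6 of 6 members were higher in Treg than in effector cells of C57BL/6 mice (limma, Benjamini-Hochberg adjusted p under 0.05), in a comparison that called 31.7% of all probe sets higher. Nothing particular to the members is read from this count, since these genes are known for this contrast. The differences were 8.63 ± 0.56 for Ikzf2, 8.43 ± 0.23 for Gpr83 and 8.39 ± 0.29 for Foxp3 (log2, standard error), which were places 1, 2 and 3 among the 18271 probe sets ordered by this difference. Over 22 other ways of fitting, Ikzf2 and Foxp3 stayed within places 1 to 3 and Gpr83 within places 1 to 6. Nrp1 differed by 6.07 ± 0.25, 4.63 ± 0.16 and 3.52 ± 0.22 on 1448944_AT, 1418084_AT and 1448943_AT (limma adjusted p of 4.6e-09, 1.75e-09 and 9.95e-08). Over all tested probe sets the median Treg minus effector value stood at -0.26 (log2), and 43.0% of the called probe sets were higher in Treg cells. With each array centred on its median this share was 52.7%, 38.0% of all probe sets were called higher, and the members' differences were 3.83 (Nrp1 1448943_AT) to 8.95 (Ikzf2). Where the effector level is near the floor the size depends on the background correction. Measured from a log2 value of 5 instead, the Treg levels stood higher by 6.94 for Ikzf2, 6.22 for Foxp3 and 5.99 for Gpr83. Culture, activation, pooling of mice and the block of provider codes differ between the populations together with cell type, and the parts of each cannot be told apart.

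The second comparison is that of the strains in Treg cells. Pool size and age also differ between these groups, as given above, and their part in the differences was not tested. Ikzf2, Gpr83 and Nrp1 fell in transgenic Treg cells, on 5 of 6 probe sets, while Foxp3 did not pass the test. Across all probe sets this comparison called 0.805% lower and 1.19% in either direction. In bulk samples, fewer cells that carry a transcript and less transcript per cell cannot be told apart.

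Foxp3, which defines the lineage, read 11.14, 11.01 and 11.06 on the transgenic Treg arrays, within the range of the C57BL/6 arrays. The mean was 11.22 ± 0.36 in C57BL/6 and 11.07 ± 0.07 in transgenic Treg cells (log2, SD, n = 3). The difference was -0.15, with a 95% interval of -0.80 to 0.49 (limma adjusted p = 0.961). The interval reaches from -0.80 to 0.49, so equality is not shown.

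Ikzf2, the Helios gene, had the deepest fall. It read 7.92, 9.50 and 9.37 on the transgenic Treg arrays, against 11.43 to 12.39 in C57BL/6, and the groups did not overlap. The mean went from 11.94 ± 0.48 to 8.93 ± 0.88 (SD, n = 3), a change of -3.01 ± 0.56 or 8.08-fold lower (limma adjusted p = 0.0239), which was place 14 from the lowest among 18271. The call depended on single arrays. It was lost (adjusted p of 0.0527 to 0.105) without C57BL/6 Treg array 2 or 3, or without transgenic Treg array 1 or 3, and was 0.0832 with the 6 Treg arrays fitted alone, while the change stayed between -3.30 and -2.51 over all 22 alternatives. Transgenic Treg array 1, the lowest, is also the pool of the oldest mice, at 33 weeks, and the change was -2.51 without it. The part of age in this was not tested.

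Gpr83, the receptor gene, read 8.57, 8.64 and 9.24 on the transgenic Treg arrays, all below the lowest C57BL/6 array (10.60). The mean went from 10.99 ± 0.39 to 8.82 ± 0.37 (SD, n = 3), a change of -2.18 ± 0.23 or 4.52-fold lower (limma adjusted p = 0.000513), at place 50 from the lowest. It passed the test under each of the 22 alternatives, with changes of -2.59 to -1.99. The standard error is shared by the 4 groups, and Gpr83 varied less on the effector arrays (SD 0.09 and 0.03). With the 6 Treg arrays fitted alone the limma adjusted p was 0.0358, and with the replicate number as a block it was 0.0185.

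Nrp1, the neuropilin-1 gene, fell by nearly the same amount on its 3 probe sets. On 1418084_AT the transgenic Treg arrays read 9.06, 9.07 and 9.26, a change of -1.55 ± 0.16 or 2.93-fold lower (limma adjusted p = 0.000486). On 1448943_AT they read 9.76, 10.15 and 9.81, a change of -1.44 ± 0.22 or 2.71-fold lower (limma adjusted p = 0.00831). On 1448944_AT they read 8.88, 9.10 and 9.01, a change of -1.50 ± 0.25 or 2.83-fold lower (limma adjusted p = 0.0138). The strains did not overlap on any of the 3 probe sets, and the 3 changes lay within 0.11 of each other. The probe sets share the RNA of the same arrays, so they are 3 readings of 1 gene and not 3 replicates. The call on 1418084_AT held under each alternative. Its limma adjusted p was 0.0112 with the 6 Treg arrays fitted alone and 0.0129 with the replicate number as a block. The call on 1448944_AT was lost (adjusted p of 0.0547 to 0.074) without C57BL/6 Treg array 2 or without transgenic Treg array 1 or 3.

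With 3 arrays against 3, the exact two-sided permutation test gives at best 0.1, and it gave 0.1 for each of these 5 probe sets and 0.5 for Foxp3. Groups of 3 arrays did not overlap in 14.8% of all tested probe sets, so separation alone is common here. A further fit kept, of the Treg arrays, only the 4 that carry consecutive provider codes, 2 of each strain. The changes were then -3.02 for Ikzf2 and -1.36 and -1.54 for Nrp1 1448943_AT and 1448944_AT. These 3 no longer passed (limma adjusted p of 0.107, 0.0876 and 0.0831), so that 2 of 6 members did. That fit called 190 of the 18271 tested probe sets in either direction.

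**Figure D2:**
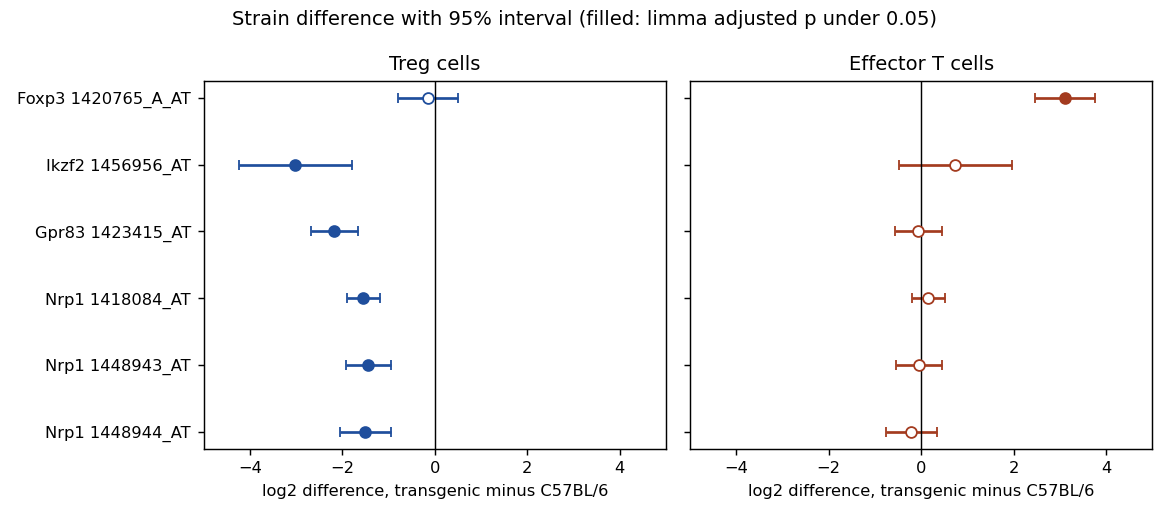
Log2 difference between transgenic and C57BL/6 cells (horizontal axis) with its 95% interval from limma for each probe set, in Treg cells (left) and effector T cells (right); filled points have an adjusted p under 0.05. In Treg cells the 5 probe sets of Ikzf2, Gpr83 and Nrp1 lie at -3.01 to -1.44 and Foxp3 at -0.15. In effector cells Foxp3 alone has an interval that leaves out 0, at 3.10. With values under 5 set to 5 this change was 0.94 and did not pass.

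Foxp3 served as a reading within the same arrays. The value of each other probe set minus that of Foxp3 was taken on each Treg array, and the strains were compared on it. Relative to Foxp3, the transgenic minus C57BL/6 difference was -2.86 for Ikzf2, -2.02 for Gpr83, and -1.40 to -1.29 for the 3 probe sets of Nrp1 (log2, means of n = 3 arrays per strain). The strains did not overlap on any of the 5 differences, and the share of all probe sets that part in this way on the same scale was not computed. Foxp3 was chosen for this with its small strain difference known, so these values describe the same changes on another scale and are no further evidence, nor do they show that Foxp3 itself was constant.

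**Figure D3:**
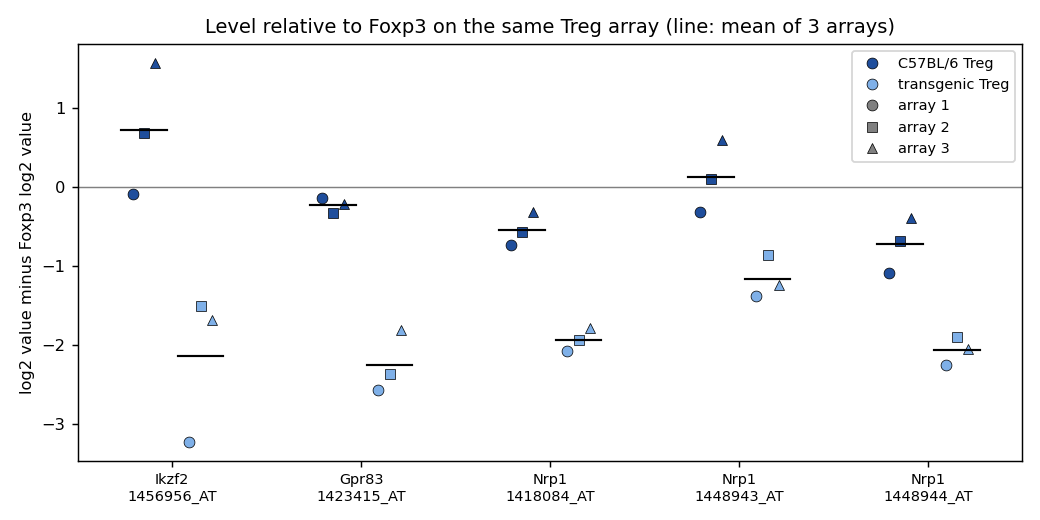
Log2 value of each probe set minus the Foxp3 value on the same array (vertical axis), for the 3 C57BL/6 and 3 transgenic Treg arrays; each marker is 1 array and each line the mean of 3. Every transgenic marker lies below every C57BL/6 marker of its probe set, and the share of all probe sets that do so on this scale was not computed. The height of 1 probe set against another carries no meaning.

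Among the C57BL/6 Treg arrays the members did not vary in 1 direction. Foxp3 and Gpr83 were highest on array 1 and lowest on array 3, while Ikzf2 was lowest on array 1 and highest on array 3. Gpr83 minus Foxp3 varied little over these arrays (SD 0.095), and Ikzf2 minus Foxp3 varied most (SD 0.83). The bacterial and phage spike transcripts, which are added to each sample, averaged 12.39, 11.25 and 10.06 over 9 probe sets on these 3 arrays, against 10.10 to 10.41 on the transgenic Treg arrays. Spike readings thus moved with the order of Foxp3 and Gpr83 and against that of Ikzf2. On array 3, whose spike reading was close to those of the transgenic arrays, Ikzf2 (12.39), Gpr83 (10.60) and Nrp1 (10.50, 11.41 and 10.42) were above every transgenic Treg array. Foxp3 (10.82) was below every transgenic Treg array there. Without that array in the fit, the C57BL/6 arrays left were those with spike readings of 12.39 and 11.25. The change was then -2.37 for Gpr83, which passed, and -2.79 for Ikzf2, which did not (limma adjusted p = 0.000466 and 0.071). The part of the spike readings in the strain changes was not tested.

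The third comparison is that of the strains in activated effector T cells. Here Foxp3 rose and none of the other members passed the test. The comparison called 1.92% of all probe sets higher and 2.99% in either direction, and 1 of the 6 members higher.

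Foxp3 read 6.40, 6.23 and 5.18 on the transgenic effector arrays, against 2.74 to 2.99 on the C57BL/6 effector arrays. The mean went from 2.83 ± 0.14 to 5.94 ± 0.66 (SD, n = 3), a change of 3.10 ± 0.29 (limma adjusted p = 0.000184, exact permutation p = 0.1), at place 16 from the highest among 18271. The strains did not overlap, as in 22.8% of all tested probe sets. The transgenic effector arrays lay above 66.7% to 71.3% of the probe sets of their array and the C57BL/6 ones above 36.8% to 43.7%. The level stayed far under that of Treg cells, since the lowest Treg array read 10.82. The size of the rise depends on values near the floor: with values under 5 set to 5 the change was 0.94, at place 514 from the highest, and did not pass (limma adjusted p = 0.126).

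Ikzf2 read 5.43 on transgenic effector array 1 and 3.33 and 3.40 on arrays 2 and 3, against 3.23 to 3.40 in C57BL/6. Array 1 was thus the only effector array of either strain on which Ikzf2 was above 5, and it also had the highest Foxp3 value of the 6. The difference between strains was 0.74, with a 95% interval of -0.48 to 1.96 (limma adjusted p = 0.62), and it was 0.05 without array 1.

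Gpr83 stayed at 2.47 to 2.53 on the transgenic effector arrays, with a difference of -0.06 (95% interval -0.57 to 0.45). Its values were within the bulk of low values on all 6 effector arrays, where a fall can hardly be seen. Nrp1 differed by 0.15, -0.05 and -0.21 on 1418084_AT, 1448943_AT and 1448944_AT, with 95% intervals of -0.21 to 0.51, -0.54 to 0.44 and -0.77 to 0.34. On the first of these the transgenic arrays read 6.19, 6.21 and 6.23, and on the second 7.70, 7.88 and 7.77, above the floor, so that falls as deep as those in Treg cells lie outside the intervals of both. The limma adjusted p of these 4 probe sets was 0.774 to 0.988.

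The label on purification of transgenic effector array 3 describes fresh spleen, in contrast to its title and source, which describe culture with anti-CD3. On that array Foxp3 read 5.18, Ikzf2 3.40, Gpr83 2.53 and Nrp1 6.23, 7.77 and 4.07, each below every Treg array. Its Foxp3 value lay between those of the other transgenic effector arrays (6.23 and 6.40) and those of the C57BL/6 effector arrays, and was apart from both. Without it, the Foxp3 change in effector cells was 3.48 and still passed (limma adjusted p = 2.51e-05).

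The change between strains was then compared between the populations. The difference (the strain change in Treg cells minus that in effector cells) was negative for all 6 members and passed the test for 5, in a comparison that called 1.52% of all probe sets lower and 2.26% in either direction. It was -3.76 ± 0.79 for Ikzf2, -3.26 ± 0.41 for Foxp3 and -2.11 ± 0.33 for Gpr83 (log2, standard error; limma adjusted p of 0.0331, 0.00234 and 0.00655). It was -1.70 for Nrp1 1418084_AT and -1.39 for 1448943_AT (limma adjusted p = 0.00323 and 0.0474), and -1.29 for 1448944_AT, which did not pass (limma adjusted p = 0.105). The source of the difference was not the same for all: Foxp3 differed mainly through its rise in effector cells, and the other genes mainly through their fall in Treg cells. For Ikzf2 the difference was -3.07 without transgenic effector array 1. With the replicate number as a block, the difference for 1448943_AT no longer passed (limma adjusted p = 0.0849). Over 21 alternatives the call was lost in 15 for 1448943_AT (adjusted p up to 0.166) and in 9 for Ikzf2 (adjusted p up to 0.094). With values under 5 set to 5, the Foxp3 difference was -1.09 and did not pass (limma adjusted p = 0.256), and that of 1448944_AT was -1.50 and did (adjusted p = 0.00276). The calls on Gpr83 and Nrp1 1418084_AT held under each of the 21. Gpr83 read 2.47 to 2.66 on the effector arrays, however, where a fall can hardly be seen. Its difference thus largely restates its fall in Treg cells. Ikzf2 and Nrp1 1448944_AT, with mean effector levels under 5 in both strains, share this limit.

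Within transgenic mice all 6 members were still higher in Treg than in effector cells, in a comparison that called 30% of all probe sets higher. This comparison uses the same transgenic arrays as the strain comparisons. The differences were 6.32 for Gpr83, 5.13 for Foxp3, 4.87 for Ikzf2, and 4.78, 2.92 and 2.13 for Nrp1 1448944_AT, 1418084_AT and 1448943_AT (log2, limma adjusted p of 1.17e-05 or less). The median over all tested probe sets was -0.21, and after centring 53.3% of the calls were higher in place of 42.9%. Gpr83, Ikzf2 and Nrp1 1448944_AT had mean effector levels under 5, and measured from 5 instead their Treg levels stood higher by 3.82, 3.93 and 4.00, all less than the 5.13 of Foxp3. The members' differences were 56.5% (Ikzf2) to 78.8% (Nrp1 1448944_AT) of the C57BL/6 differences on the log2 scale, with 61.2% for Foxp3 and 74.9% for Gpr83. With effector levels under 5 read as 5 in both strains, the shares were 56.6% for Ikzf2, 63.7% for Gpr83, 72.7% for Nrp1 1448944_AT and 82.5% for Foxp3, so the order of the shares depends on the floor.

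By level, then, the groups were ordered C57BL/6 Treg, transgenic Treg and then both effector groups for Ikzf2, Gpr83 and each Nrp1 probe set, with no difference beyond the spread between the effector groups. For Foxp3 the Treg groups did not differ beyond their spread, and below them came transgenic and then C57BL/6 effector cells.

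Likeness of pattern was taken as Pearson's r of log2 values over the 12 arrays, as a description. The arrays fall into the Treg and effector populations, and r mostly follows the gap between them. Gpr83 and Nrp1 1418084_AT had r = 0.995, and each was among the 7 probe sets most like the other out of 18270. Foxp3 was less like the other members, with r of 0.881 to 0.928, and held places 1697 to 2560 in their lists. As many as 1511 probe sets had an r of at least 0.95 with Gpr83, and 468 with Foxp3, so a high r was common. Across all tested probe sets, 4912 were higher in Treg than in effector cells in both strains, as all 6 members were. Of these, 65 (1.32%) were also lower in transgenic Treg cells, as 5 of the members were, and 85 (1.73%) were higher in transgenic effector cells, as Foxp3 was.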

How the data were processed

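Per the submitters' processing notes, the authors made the deposited log2 values with GCRMA, which corrects Affymetrix probe signals for background by base composition, normalizes the arrays and gives 1 value per probe set. The version and the joint or separate handling of the populations are not given in the sources used here. Per the labels' protocols, a single in vitro transcription amplified the RNA. All 12 arrays were used, grouped by their titles. The 64 control probe sets were left out, and 18271 of the other 45037 probe sets with a log2 value of 5 or more on 3 arrays or more were tested. Precision is limited by the number of arrays.

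A linear model with 4 group means was fitted in limma 3.58.1 (R 4.3.3; eBayes with a variance trend), with Benjamini-Hochberg adjustment over all tested probe sets and a threshold of 0.05. The model was tested on simulated data. Exact permutation tests over arrays were two-sided. Figures were drawn with matplotlib 3.10.9.

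The members, lists and tests were chosen with earlier results of these data known. All 6 members are named, by rule. Lists of partner genes and cell markers, and the naming of other genes by likeness, were not analysed here, because the tables used here do not pair other probe sets with genes. Deviations of same-numbered C57BL/6 and transgenic arrays from their group means correlated at 0.58, 0.10 and 0.51 across probe sets in Treg cells. Arrays of unlike number correlated at -0.54 to 0.11. By these data, and not by the labels, arrays 1 and 3 were thus alike across the strains, while number 2 was not set apart. Deviations within a group sum to 0, so these correlations are not independent of each other. The fit and the permutation tests reported are unpaired, and the replicate number entered as a block in 1 alternative. The description fields of 2 effector arrays give other numbers than their titles, and same-numbered effector arrays did not pair (0.21, -0.34 and -0.34). C57BL/6 effector array 2 correlated at 0.40 with transgenic array 3, and C57BL/6 array 3 at 0.42 with transgenic array 2. The other effector pairs of unlike number gave -0.30 to 0.14. The block followed the title numbers. Alternatives were other filters, normalizations, variance models and weights, fewer arrays, a replicate block, and, chosen after seeing the data, a floor at 5.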

Additional observations from a re-analysis of the deposited data

Results flagged for a closer look

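The strain change differed between Treg and effector cells for 5 of the 6 probe sets (limma test of the difference itself, 3 arrays per group), in a test that called 2.26% of all probe sets. Over 21 alternatives the call was lost in 15 for Nrp1 1448943_AT, in 9 for Ikzf2 and in 1 for Foxp3. The difference was -3.76 for Ikzf2 1456956_AT, -3.26 for Foxp3 1420765_A_AT, -2.11 for Gpr83 1423415_AT, -1.70 for Nrp1 1418084_AT and -1.39 for Nrp1 1448943_AT (log2). Foxp3 rose by 3.10 in effector cells and differed by -0.15 in Treg cells, whereas Gpr83 changed by -2.18 in Treg cells and differed by -0.06 in effector cells. Gpr83 and Ikzf2 had mean effector levels under 5 in both strains, where a fall can hardly be seen. With values under 5 set to 5, the Foxp3 difference was -1.09 (limma adjusted p = 0.256).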

How the results depend on the processing

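All 6 members kept their direction and their call in both Treg against effector comparisons under all 22 alternatives. In the Treg strain comparison the sign was kept in 132 of 132 values and the call in 121. Many of these alternatives, such as other filters or leaving out an effector array, do not alter the Treg difference itself. Their signs could not change. The count of members called there was 5, with 218 of the 18271 tested probe sets called. It was 2 with the Treg arrays of consecutive provider codes, where 190 were called, and was 3 to 5 with 1 array left out. In the effector strain comparison it was 1, and 0 with values under 5 set to 5. For the difference of the strain changes it was 5, was 3 without a filter and 3 with consecutive provider codes, and ranged from 3 to 5 with 1 array left out. It was 6 with array weights, which called 2529 of the 18271 tested probe sets, against 413 in the main fit. With the replicate block it was 4, and the block changed no other call on a member than that of Nrp1 1448943_AT given above. That block followed the title numbers, by which the effector arrays did not pair. Over all probe sets, the Treg strain count of 218 was 1232 with array weights, 135 with a filter at 7 and 74 with the 6 Treg arrays alone. It was 190 with consecutive provider codes, and as low as 135 with 1 array left out (C57BL/6 Treg array 2). The effector count of 547 was 3033 with array weights, 347 without a filter, 223 with the effector arrays alone and as low as 266 without C57BL/6 effector array 2. The count of 413 for the difference was 2529 with array weights and as low as 214 without C57BL/6 Treg array 2. Without a filter the Treg against effector counts of 13475 and 12789 were 31870 and 31397, with 45037 probe sets tested. The cause of these shifts was not tested.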
